A study of Mus musculus with 42 samples.

Results

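The kainate receptor subunit genes Grik1, Grik2, Grik3, Grik4 and Grik5 were followed in hand-sorted mouse Purkinje cells and Stellate/Basket cells. The members were all probe sets that the array's annotation assigns to one of these 5 symbols alone. There were 8 such probe sets, of 34958 with a single symbol, for 5 of 18194 genes. Grik1, Grik2 and Grik3 have 2 probe sets each, and Grik4 and Grik5 have 1 each. For each gene the brightest probe set on average stands for it, and the others are described after it.

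Kainate receptors are glutamate-gated cation channels made of 4 subunits. The products of Grik1, Grik2 and Grik3 form channels alone or with each other, whereas those of Grik4 and Grik5 bind kainate with high affinity but need a product of Grik1, Grik2 or Grik3 to form a working channel. The receptors act both at postsynaptic sites and on transmitter release, and the auxiliary proteins Neto1 and Neto2 shape their gating and placement. In rat cerebellum, in situ hybridisation is known to place Grik1 and Grik4 transcripts in Purkinje cells and Grik3 transcripts in stellate and basket cells.

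Gene expression was measured on Affymetrix MOE430.2 arrays. Purkinje cells are the projection neurons of cerebellar cortex, and they were represented by 3 arrays each at postnatal day 3 (P3), P7 and P14, and by 4 arrays each at P21, P28, P35 and P56. Stellate/Basket cells, the inhibitory interneurons of the molecular layer, had 4 arrays for P14, 3 for P21, 4 for P28 and 2 each for P35 and P56. All animals were of strain CB6-Tg(Gad1-EGFP)G42Zjh/J, known as G42, a Gad67-GFP bac transgenic line that marks Gad67-positive neurons with GFP, and all were labelled male. The cells were freed from slices with a bacterial protease in the presence of TTX, AP5 and CNQX (the last a blocker of AMPA and kainate receptors), and were picked by GFP and soma size. Another 2 Stellate/Basket columns, 1 of P35 and 1 of P56, were averages of the remaining arrays of the same age within 1e-08 and were left out, which leaves 40 arrays. The labels call the replicates biological. P-values measure the spread between arrays, which is pooled over the 12 groups of cell type and age, and the number of arrays limits their precision.

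Several groups of arrays stood apart from their labels in the cell type markers. The mean of 6 molecular layer interneuron markers (Kit, Tfap2b, Ptprk, Lypd6, Sorcs3 and Cnr1) was 9.48 ± 0.08 in Purkinje arrays at P3 and 9.72 ± 0.85 at P7 (SD, n = 3 each, log2), but 5.53 to 5.74 at the later Purkinje ages. In Stellate/Basket arrays it was 10.45 to 10.96 from P14 to P35, but 6.24 ± 0.01 at P56 (SD, n = 2). The mean of 7 Purkinje markers (Pcp2, Calb1, Ppp1r17, Car8, Slc1a6, Pcp4 and Gng13, the measured ones of 8) was 8.0 ± 1.57 in Purkinje arrays at P3 and 10.12 ± 0.5 at P7 (SD, n = 3 each), and 13.21 to 13.42 later. In Stellate/Basket arrays it was 8.50 at P14, 9.87 to 10.97 from P21 to P35 and 12.63 at P56. The single Purkinje arrays at P3 were at 9.33, 8.41 and 6.27. The last, replicate 3, lay below every Stellate/Basket array, of which the lowest was at 7.5. Results of the members that rest on the P3 and P7 Purkinje arrays or the P56 Stellate/Basket arrays are therefore also given without these arrays. Xist, a transcript of the inactive X chromosome, was above log2 9 in 13 of 25 Purkinje and 14 of 15 Stellate/Basket arrays, all labelled male. Its part in the results was tested only as a covariate and by splitting the arrays.

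The 5 genes lie on different chromosomes. In RefSeq's annotation of GRCm38, Grik1 spans chr16:87895901-88290863, Grik2 chr10:49093680-49790161, Grik3 chr4:125490259-125714173, Grik4 chr9:42518182-42945000 and Grik5 chr7:25009849-25075694. Upstream windows of 250 bases were taken from RefSeq (GRCm38.p6), where 4 of the 5 members matched, Grik2, Grik3, Grik4 and Grik5. The windows of Grik3, Grik5 and Grik4 are shown because the first pair had lower values in Purkinje cells from P14 while Grik4 had higher ones. The capitals mark GGGCGG, the GC box bound by Sp-family factors, on either strand (CCGCCC on the opposite one). The windows are chr4:125490446-125490695 on the plus strand for Grik3, chr7:25072370-25072619 on the minus strand for Grik5 and chr9:42944372-42944621 on the minus strand for Grik4.
Grik3: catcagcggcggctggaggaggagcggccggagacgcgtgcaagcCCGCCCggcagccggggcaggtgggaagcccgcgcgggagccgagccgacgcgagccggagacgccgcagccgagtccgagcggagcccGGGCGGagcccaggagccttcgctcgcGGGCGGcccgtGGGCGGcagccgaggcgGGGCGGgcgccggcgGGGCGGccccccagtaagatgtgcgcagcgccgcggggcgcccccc
Grik5: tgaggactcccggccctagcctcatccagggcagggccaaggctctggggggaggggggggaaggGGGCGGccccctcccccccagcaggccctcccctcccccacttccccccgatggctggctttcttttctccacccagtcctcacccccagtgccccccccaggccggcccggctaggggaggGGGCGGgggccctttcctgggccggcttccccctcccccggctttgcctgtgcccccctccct
Grik4: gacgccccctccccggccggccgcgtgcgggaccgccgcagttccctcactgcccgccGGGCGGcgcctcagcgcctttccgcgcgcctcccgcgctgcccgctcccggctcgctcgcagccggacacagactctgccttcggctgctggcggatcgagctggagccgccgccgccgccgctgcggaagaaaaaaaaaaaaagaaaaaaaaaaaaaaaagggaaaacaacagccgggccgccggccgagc
The annotated gene span begins further upstream of the start used for each window, by 437 bases for Grik3, 3325 for Grik5 and 629 for Grik4, so other starts are not covered. GGGCGG occurred 6 times in the Grik3 window, 2 times in that of Grik5, 1 time in that of Grik4 and 0 times in that of Grik2, and 32.7% of 32851 windows of this length in the table hold it. The dinucleotide CG occurred 42 times in the Grik3 window, 8 times in that of Grik5, 36 times in that of Grik4 and 20 times in that of Grik2, against a median of 6 over all windows. The E-box letters CANNTG, read on both strands, were found 1 time in the Grik3 window and in none of the other 3 (66.2% of all windows hold them), and neither TATAAA (12.4%) nor TGACGTCA (1.55%) was found in any of the 4. All 3 printed windows hold a GC box. These matches are descriptions of letters and were not tested as sites.

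Purkinje cells from P14 on had high Grik1 and low Grik3, and Stellate/Basket cells from P14 to P35 had the reverse. Averaged over the 5 shared ages, Grik1 and Grik4 were higher in Purkinje cells, Grik3 and Grik5 were lower, and Grik2 did not pass the test. These 4 calls of 5 genes compare with 11.5% of the 17478 genes tested that were called in this comparison, 6.37% higher and 5.13% lower. The call rule was an adjusted p below 0.05 together with a log2 difference of 1 or more in either direction. The mean of 8 astrocyte and Bergmann glia markers was 6.65 to 7.63 in Purkinje cells from P14 on, against 7.29 in Stellate/Basket cells at P14, 10.1 to 10.82 from P21 to P35 and 11.35 at P56. At P14, where these means were 6.65 in Purkinje and 7.29 in Stellate/Basket cells, Grik1, Grik3 and Grik5 were called. Single arrays of that age had glial marker means of 6.57 to 6.73 in Purkinje and 6.44 to 8.47 in Stellate/Basket cells. The P14 arrays also differed in Xist, at 6.47 to 6.59 in Purkinje and 12.77 to 12.88 in Stellate/Basket cells. Cell type and Xist thus cannot be told apart at P14. The part of glial RNA in the differences was not tested at any age. In pools of picked cells, fewer cells of a type and less RNA per cell cannot be told apart.

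**Figure D1:**
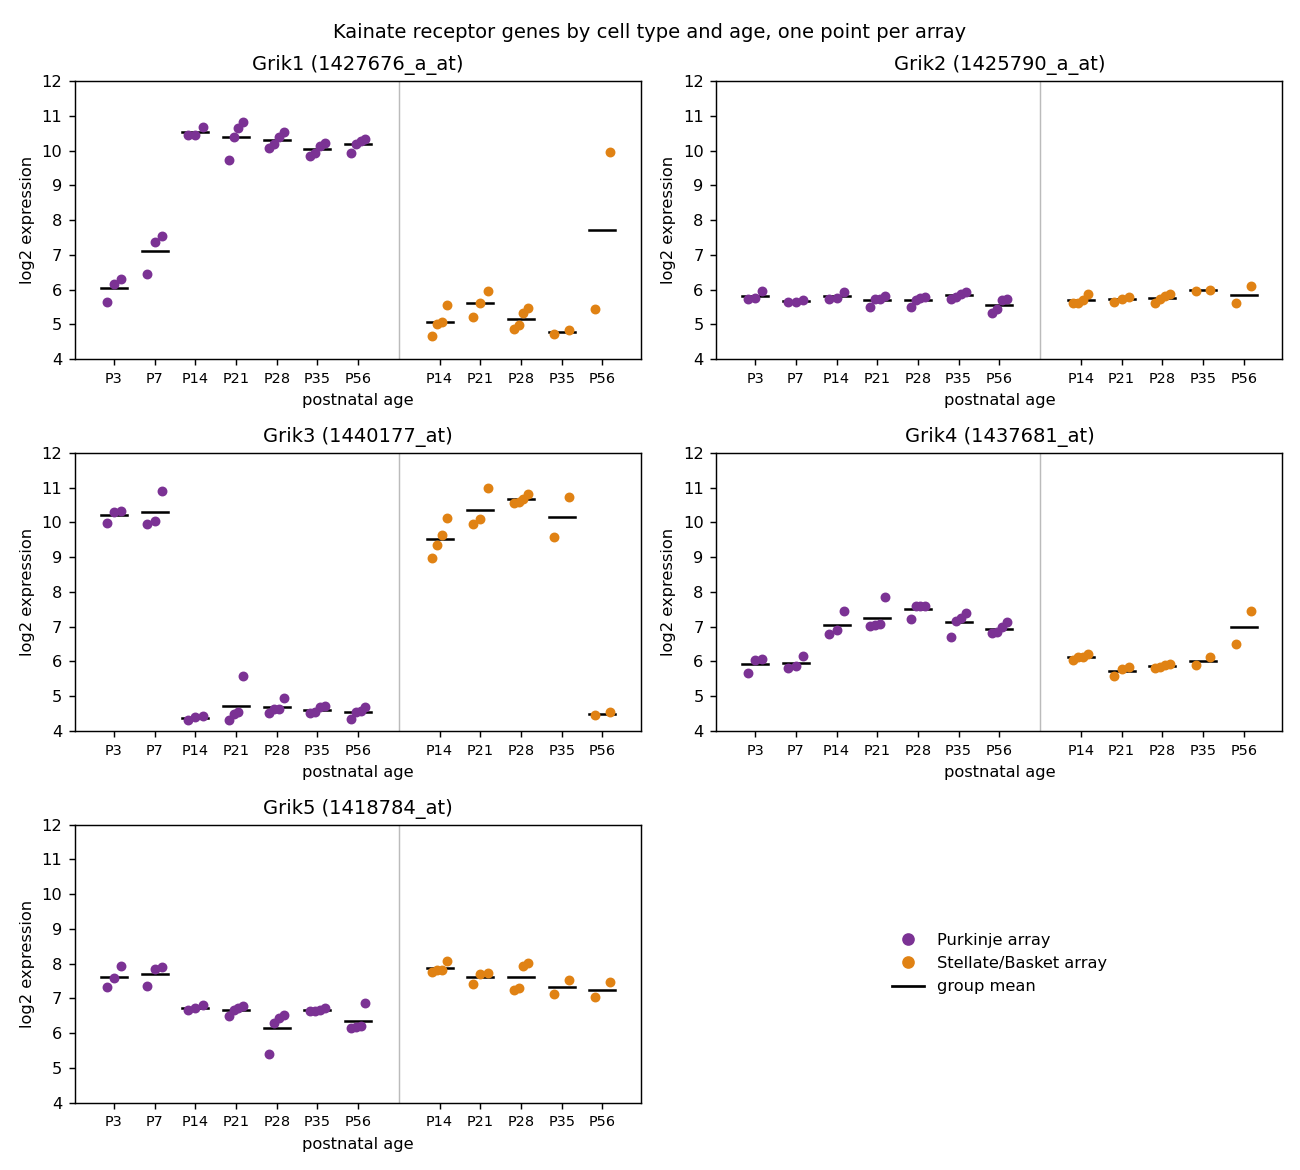
Deposited log2 expression (vertical axis) of the 5 kainate receptor genes against postnatal age (horizontal axis) for Purkinje arrays (left of the grey line) and Stellate/Basket arrays (right). Each point is 1 of 40 arrays and each black bar a group mean. Grik1 is at 9.74 to 10.83 in Purkinje arrays from P14 and at 4.65 to 5.97 in Stellate/Basket arrays from P14 to P35, and Grik3 is the other way round.

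Grik1 encodes GluK1, the subunit once called GluR5. In Purkinje arrays its probe set 1427676_a_at was at 10.69, 10.46 and 10.44 at P14 and at 9.74, 10.83, 10.65 and 10.38 at P21 (log2). It was at 10.08, 10.38, 10.18 and 10.52 at P28, at 9.84, 10.23, 10.13 and 9.93 at P35 and at 10.33, 10.18, 10.28 and 9.92 at P56. In Stellate/Basket arrays it was at 4.65, 5.56, 5.06 and 5.0 at P14, at 5.61, 5.97 and 5.22 at P21, at 5.33, 5.47, 4.88 and 4.99 at P28 and at 4.71 and 4.84 at P35. No array of the 13 Stellate/Basket arrays from P14 to P35 came within 3 log2 units of the lowest of the 19 Purkinje arrays from P14 on. How many of all genes separate in this way was not computed, for Grik1 or for the other members. The Stellate/Basket arrays at P56 split widely, with 9.97 in replicate 1 and 5.44 in replicate 3.

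Over the 5 shared ages the log2 difference in Grik1 was 4.62 ± 0.23 (SE), a 24.6-fold higher level in Purkinje cells (limma, adjusted p = 2.71e-17), and without P56 it was 5.16 ± 0.25. By age, the difference was 5.46 ± 0.50 for P14, 4.80 ± 0.50 for P21, 5.12 ± 0.46 for P28, 5.26 ± 0.57 for P35 and 2.47 ± 0.57 for P56, and Grik1 was called each time. The share of all genes called was 13.3% for P14, 13.5% for P21, 16.5% for P28, 11.4% for P35 and 20.6% for P56. The value at P56 rests on Stellate/Basket replicate 3: without it the difference was 0.21 ± 0.35, and without replicate 1 it was 4.74. It was 1.31 ± 0.62 and not called with each array's 90th percentile as a covariate. Among the 12 groups the 5 Purkinje groups from P14 on had the highest Grik1 means, 10.03 to 10.53, and each overlapped its neighbour in that order. The lowest 4 were Stellate/Basket at P21, P28, P14 and P35, at 5.60, 5.17, 5.07 and 4.78. These lie near the lower end of the scale, whose lowest value over all probe sets was 3.94. The Grik1 fold thus also depends on how the authors' normalization treats low signals.

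Grik3 encodes GluK3, a subunit that in recombinant receptors responds only to high glutamate concentrations. In Purkinje arrays its probe set 1440177_at was at 4.30, 4.42 and 4.39 at P14, at 4.53, 5.59, 4.48 and 4.31 at P21 and at 4.95, 4.63, 4.62 and 4.52 at P28. It was at 4.51, 4.71, 4.54 and 4.68 at P35 and at 4.70, 4.34, 4.57 and 4.55 at P56. In Stellate/Basket arrays it was at 10.13, 8.97, 9.34 and 9.64 at P14, at 9.94, 10.99 and 10.10 at P21, at 10.81, 10.68, 10.58 and 10.57 at P28 and at 9.58 and 10.72 at P35. The groups of these ages did not overlap, and the Purkinje values lay near the lower end of the scale, whose lowest value over all probe sets was 3.94. At P56 the 2 Stellate/Basket arrays were at 4.45 and 4.55, inside the range of the Purkinje arrays of that age.

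The log2 difference in Grik3 over the 5 shared ages was -4.45 ± 0.13 (SE), 21.9-fold lower in Purkinje cells (limma, adjusted p = 2e-23), and without P56 it was -5.57 ± 0.14. By age, it was -5.15 ± 0.28 for P14, -5.62 ± 0.28 for P21, -5.98 ± 0.25 for P28 and -5.55 ± 0.31 for P35, all called, but 0.04 ± 0.31 for P56 (adjusted p = 0.92). These folds depend on how the authors' normalization treats the lowest signals, and no detection calls come with the values. All 40 Grik3 values fell either at or below 5.59 or at or above 8.97.

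Grik2 encodes GluK2, the main subunit of cerebellar granule cells in rodents. Its probe set 1425790_a_at stayed between 5.32 and 6.09 in all 40 arrays, with a median of 5.74. The lowest group mean was 5.54 ± 0.20 (SD, n = 4) in Purkinje cells at P56 and the highest 5.97 ± 0.02 (n = 2) in Stellate/Basket cells at P35, and each group overlapped its neighbour in the order of the means. Over the shared ages the log2 difference was -0.09 ± 0.05 (SE; limma, adjusted p = 0.16), without P56 it was -0.03 ± 0.06, and no single age was called. The mean of 1425790_a_at over the arrays ranked at the 35.3 percentile of the 34958 probe sets with a single symbol. The mean of 4 granule cell markers was 7.36 at P3, 7.56 at P7 and 5.72 to 6.04 from P14 on in Purkinje arrays, and 7.38 to 8.48 in Stellate/Basket arrays. The second Grik2 probe set, 1457683_at, was above log2 5 in 5 of 40 arrays. They were Purkinje P3 replicates 1, 2 and 3 (5.34, 5.42 and 5.64), P7 replicate 1 (6.28) and Stellate/Basket P35 replicate 2 (5.35). Its Purkinje group means from P14 on were 4.65 to 4.75. With the 2 probe sets averaged, Purkinje P56 minus P3 was -0.50 ± 0.11 (SE; limma, adjusted p = 0.000443), under the minimum size.

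Grik4 encodes GluK4, once called KA1. In Purkinje arrays from P14 on its lowest, median and highest values were 6.70, 7.12 and 7.86 (19 arrays), against 5.59, 5.91 and 6.22 in Stellate/Basket arrays from P14 to P35 (13 arrays). These groups did not overlap, though the share of all genes that separate in this way was not computed. The Stellate/Basket arrays at P56 were at 7.45 in replicate 1, the array with high Grik1, and at 6.5 in replicate 3. The log2 difference over the shared ages was 1.03 ± 0.09 (SE), 2.04-fold higher in Purkinje cells (limma, adjusted p = 2.46e-11), and without P56 it was 1.29 ± 0.10. It was 1.52 ± 0.19 at P21, 1.63 ± 0.18 at P28 and 1.10 ± 0.22 at P35, all called. At P14 it was 0.92 ± 0.19, under the minimum size, and at P56 -0.03 ± 0.22 (adjusted p = 0.914). The P14 value was 1.04 and passed without Purkinje P14 replicate 3, and the P35 value was 0.99 and did not pass without Stellate/Basket P35 replicate 2. The mean difference sits close to the minimum of 1 and was 0.93 without Stellate/Basket P56 replicate 3 and 0.99 without Purkinje P14 replicate 2 or without Purkinje P21 replicate 1.

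Grik5 encodes GluK5, once called KA2, a widely expressed partner subunit. In Purkinje arrays from P14 on its lowest, median and highest values were 5.39, 6.63 and 6.87 (19 arrays), against 7.13, 7.74 and 8.07 in Stellate/Basket arrays from P14 to P35 (13 arrays). The 2 Stellate/Basket arrays at P56, at 7.03 and 7.46, also lay above all the Purkinje arrays from P14 on. The share of all genes whose arrays separate in this way was not computed, here or for the other members. The log2 difference over the shared ages was -1.03 ± 0.10 (SE), 2.04-fold lower in Purkinje cells (limma, adjusted p = 2.79e-10), and without P56 it was -1.06 ± 0.11. It was -1.14 ± 0.22 at P14 and -1.47 ± 0.20 at P28, both called, and -0.96 ± 0.22 at P21, -0.67 ± 0.25 at P35 and -0.89 ± 0.25 at P56, under the minimum size. At P21 it was -1.06 and passed without Stellate/Basket P21 replicate 3. At P56 it was -1.06 without Purkinje P56 replicate 2 and -1.10 without Stellate/Basket P56 replicate 1, and then passed. The mean difference also sits close to that minimum: it was -0.97 with each array centred on its median, -0.95 with Xist as a covariate, and between -0.97 and -0.99 without Purkinje P28 replicate 1, Stellate/Basket P35 replicate 1 or Stellate/Basket P56 replicate 3.

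**Figure D2:**
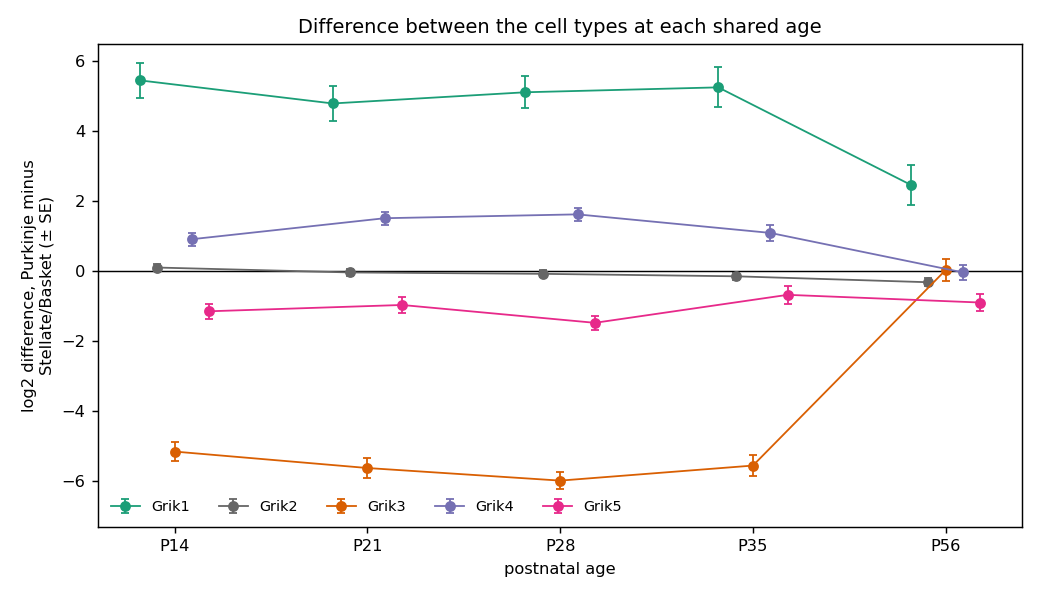
Log2 difference, Purkinje minus Stellate/Basket (vertical axis), of the 5 genes at each shared age (horizontal axis), with bars for the SE of the limma fit. Grik1 lies at 4.80 to 5.46 and Grik3 at -5.15 to -5.98 from P14 to P35, and at P56 they are at 2.47 and 0.04.

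With a line at log2 8, no array was above it for both Grik1 and Grik3. The line lies in gaps of these same values, between 7.54 and 9.74 for Grik1 and between 5.59 and 8.97 for Grik3. The counts are therefore a description and not a test. They were 20 arrays above it for Grik1 and not for Grik3, 19 for Grik3 and not for Grik1, 0 for both and 1 for neither. The first set held the 19 Purkinje arrays from P14 on and Stellate/Basket P56 replicate 1. The second held the 13 Stellate/Basket arrays from P14 to P35 and the 6 young Purkinje arrays (P3 and P7). In this set, Purkinje P7 replicates 2 and 3 had Grik1 at 7.36 and 7.54 beside Grik3 at 10.05 and 9.96. Their Grik1 lay above that of the 13 Stellate/Basket arrays, at most 5.97. The array with neither was Stellate/Basket P56 replicate 3. Because the arrays fall into separate clusters, no pooled correlation is given.

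**Figure D3:**
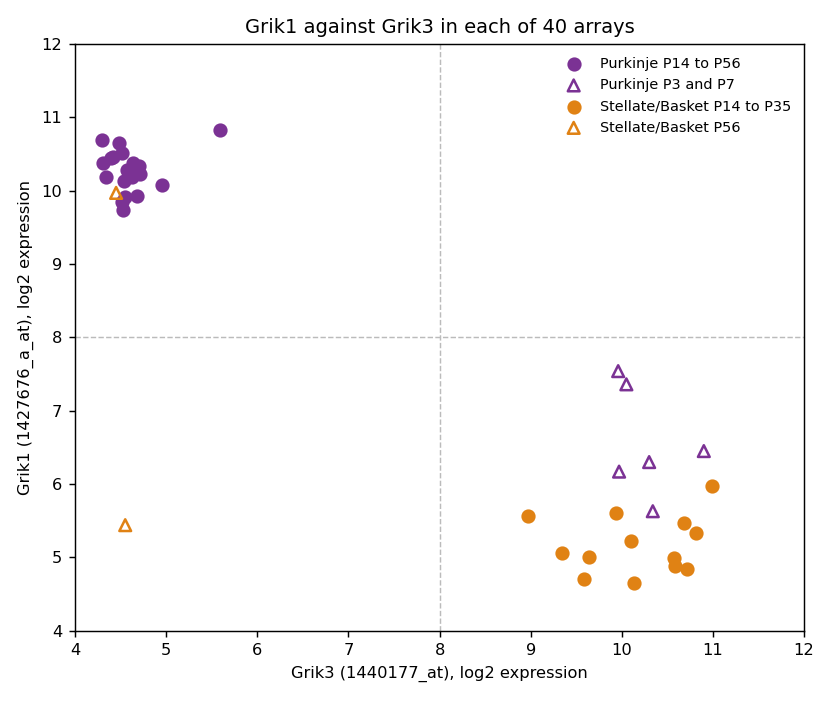
Grik1 (vertical axis) against Grik3 (horizontal axis), both as log2 expression, with 1 point for each of 40 arrays. Dashed lines are at log2 8, and colour and shape give cell type and age. The arrays form a cluster with high Grik1 (20 arrays) and a cluster with high Grik3 (19 arrays), and 1 Stellate/Basket array at P56 has neither.

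Within Purkinje cells, Grik1 and Grik4 rose and Grik3 and Grik5 fell between P3 and P56, and for Grik1, Grik3 and Grik4 the called step was the one between P7 and P14. Between P3 and P56, 4 of the 5 genes were called, against 16.5% of all genes tested (8.71% higher and 7.81% lower at P56). Grik1 was at 6.17, 6.30 and 5.63 at P3 and at 6.45, 7.36 and 7.54 at P7, below every later Purkinje array. Grik3 was at 9.97, 10.30 and 10.34 at P3 and at 10.90, 10.05 and 9.96 at P7, in the range of the Stellate/Basket arrays from P14 to P35. Grik4 was at 5.66 to 6.15 and Grik5 at 7.34 to 7.92 over these 6 young arrays, neither of which overlapped its later Purkinje values. The share of all genes with such a separation by age was not computed. For Grik3, Grik4 and Grik5 the young Purkinje values lay within the range of the Stellate/Basket arrays from P14 to P35. For Grik1 only P3 replicate 3 did, and the other 5 young arrays lay above that range.

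The P56 minus P3 difference in Purkinje cells was 4.15 ± 0.50 (SE) for Grik1 (limma, adjusted p = 5.3e-08) and -5.66 ± 0.28 for Grik3 (7.66e-17). It was 1.02 ± 0.19 for Grik4 (9.25e-05), -1.27 ± 0.22 for Grik5 (2.06e-05) and -0.27 ± 0.11 for Grik2 (0.0523). The Grik4 value was 0.89 without Purkinje P3 replicate 1 and 0.96 without Purkinje P56 replicate 3, under the minimum size in both. In the step from P7 to P14, the later minus the earlier age was 3.41 ± 0.53 for Grik1, -5.93 ± 0.29 for Grik3 and 1.10 ± 0.21 for Grik4, all called (12.7% of all genes were), and -0.98 ± 0.23 for Grik5, just under the minimum size. Without Purkinje P14 replicate 2 the Grik4 step was 0.90 and no longer passed, and the Grik5 step was -1.02 without Purkinje P14 replicate 3 and -1.15 without P7 replicate 3, and passed. No member was called between P3 and P7, where 0.0515% of genes were, or in a later Purkinje step, where the share was 0.0629% from P14 to P21, 0.618% to P28, 0.383% to P35 and 2.85% to P56. At an unadjusted p under 0.05 these 5 steps held 0, 0, 1, 2 and 1 of the 5 members in order of age. Over all 7 Purkinje ages, an F test called all members except Grik2 (25.8% of genes).

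From P14 to P56 no member changed by the test in Purkinje cells, where 1.69% of all genes were called. The later minus the earlier age was -0.35 ± 0.50 (SE) for Grik1, 0.17 ± 0.28 for Grik3, -0.10 ± 0.19 for Grik4, -0.37 ± 0.22 for Grik5 and -0.26 ± 0.11 for Grik2 (limma, adjusted p of 0.11 to 0.793), and Grik2 alone had an unadjusted p under 0.05. These values use neither P3 nor P7, and no F test was run over P14 to P56 alone. At P3 and P7 the mean of the 5 Golgi and unipolar brush cell markers (Lgi2, Slc6a5, Grm2, Eomes and Sst) was also high, at 9.0 and 8.94, against 6.18 to 6.57 later. The part of other cell types, and of the immaturity of the cells, in the young values was not tested.

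**Figure D4:**
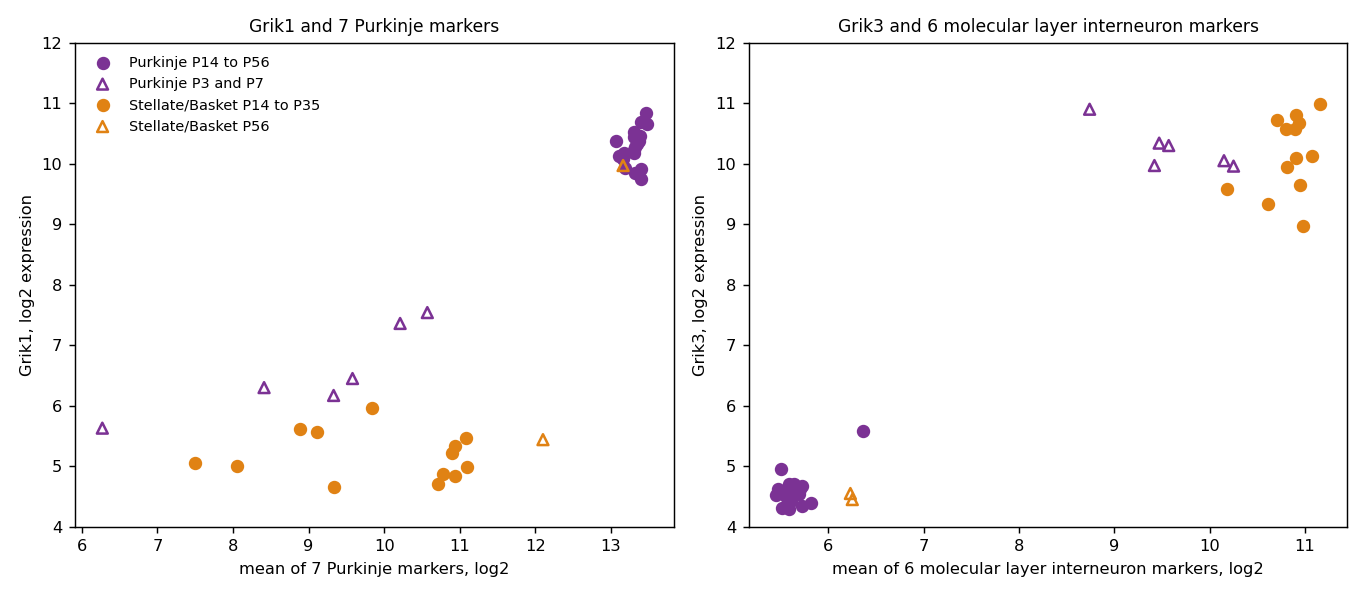
Left, Grik1 against the mean of 7 Purkinje markers, and right, Grik3 against the mean of 6 molecular layer interneuron markers, all log2, with 1 point for each of 40 arrays. Grik3 is high where the interneuron marker mean is 8.74 or more and low where it is 6.36 or less. Grik1 is high where the Purkinje marker mean is 13.07 or more.

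In Stellate/Basket cells the only called changes of members with age involved the 2 arrays at P56. Between P14 and P56, Grik3 fell by a log2 difference of -5.02 ± 0.31 (SE; limma, adjusted p = 8.9e-14) and Grik1 rose by 2.64 ± 0.57 (adjusted p = 0.000452), against 18.7% of all genes called (6.47% higher and 12.3% lower at P56). Grik4 (0.85 ± 0.22) and Grik5 (-0.63 ± 0.25) had smaller values than the minimum, and Grik2 was at 0.16 ± 0.12. With P35 in place of P56, no member was called, and the differences from P14 were -0.29 for Grik1 and 0.63 for Grik3. The Grik1 rise rests on P56 replicate 1 alone, without which it was 0.37 ± 0.35 (adjusted p = 0.421). Between P35 and P56, Grik1 had a difference of 2.93 ± 0.65 and Grik3 one of -5.66 ± 0.36, both called (11.6% of all genes were), and the Grik1 value was 0.67 without P56 replicate 1. No member was called in the steps from P14 to P21, P28 and P35, where 1.77%, 1.01% and 1.34% of genes were, though Grik3 from P14 to P21 was at 1.03 and passed without P14 replicate 1. At an unadjusted p under 0.05 these 3 steps held 1, 0 and 0 members. Grik4 between P35 and P56 was at 0.96 ± 0.25, and passed at 1.06 without P35 replicate 1 and at 1.43 without P56 replicate 3. An F test over the 5 ages called Grik1, Grik3 and Grik4 (23.9% of genes), and the Grik1 and Grik4 calls were lost without P56 replicate 1 (adjusted p = 0.12 and 0.0811).

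The change from P14 to P56 differed between the cell types for Grik1 (Purkinje minus Stellate/Basket change, -2.99 ± 0.75 SE; limma, adjusted p = 0.00301) and for Grik3 (5.19 ± 0.42; 8.92e-11), where 20.1% of all genes were called (13% higher and 7.04% lower). The median of this difference over all genes was -0.15. Without Stellate/Basket P56 replicate 1 the Grik1 value was -0.73 (adjusted p = 0.168), and up to P35 in place of P56 the 2 values were -0.20 and -0.40, with neither called. In the 2 Stellate/Basket arrays at P56 the Purkinje marker mean was 13.16 in replicate 1 and 12.10 in replicate 3. The interneuron marker mean was 6.25 in replicate 1 and 6.23 in replicate 3, and that of 8 astrocyte and Bergmann glia markers 11.08 and 11.61. The part of these markers' cells in the P56 values was not tested.

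The second probe sets of Grik1 and Grik3 did not show the same sizes. For Grik1, 1439987_at had a log2 difference between the cell types of 0.65 ± 0.17 (SE; limma over 32918 probe sets, adjusted p = 0.00134), in the same direction but under the minimum. It was highest in Purkinje cells at P21 (5.51 to 7.92) and P56 (5.77 to 7.34), and between P3 and P56 it rose by 1.15 ± 0.35 (adjusted p = 0.0118, with 15.2% of probe sets called). It was also called between the cell types at P21 (1.52 ± 0.35; 12.2% of probe sets) and from P21 to P28 in Purkinje cells, where it fell by a log2 difference of -1.28 ± 0.33 (0.605% of probe sets). For Grik3, 1427709_at stayed between 5.99 and 7.16 in all 40 arrays. Its difference was 0.01 ± 0.06 (adjusted p = 0.874) between the cell types, where 10.3% of probe sets were called, and 0.18 ± 0.13 between P3 and P56 in Purkinje cells. The Grik3 results above thus come from 1 of its 2 probe sets, and which transcripts each detects was not analysed here. With the 2 probe sets of each gene averaged, the difference between the cell types was 2.64 ± 0.17 for Grik1 and -2.22 ± 0.07 for Grik3, both still called.

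**Figure D5:**
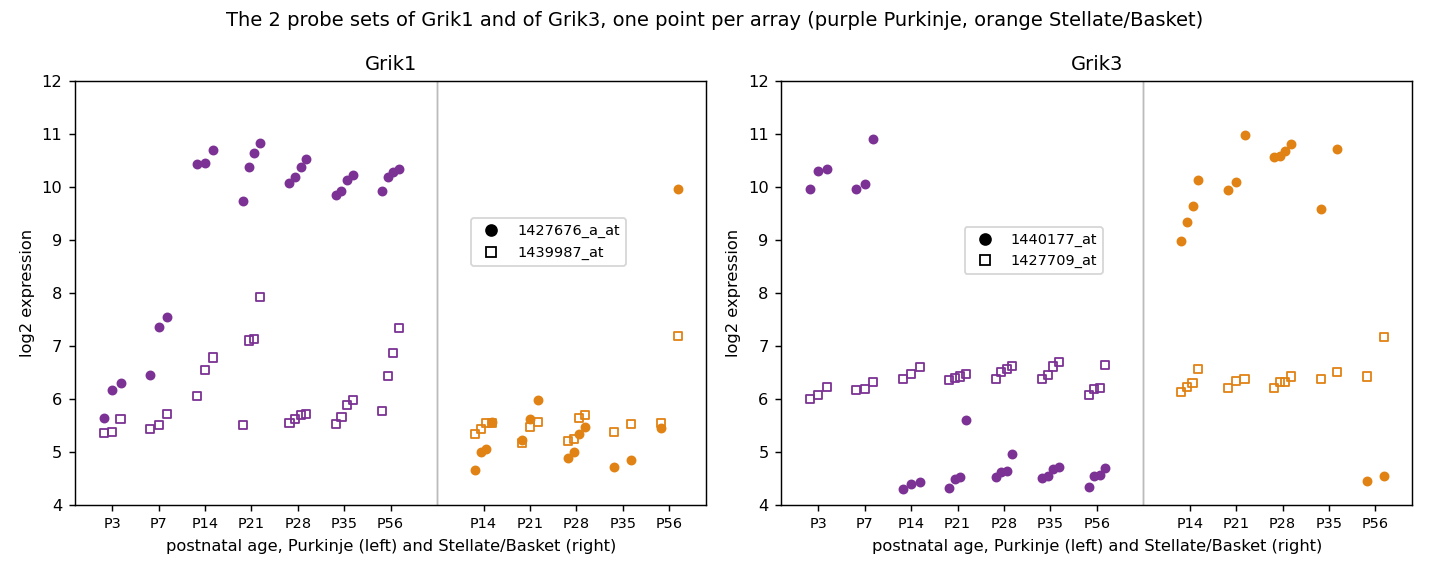
Log2 expression (vertical axis) of both probe sets of Grik1 (left panel) and of Grik3 (right panel) by postnatal age, Purkinje arrays in purple and Stellate/Basket arrays in orange, 1 point per array. Circles are the probe set used for the gene and open squares the other one. The squares of Grik3 stay between 5.99 and 7.16 in every group.

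Of the auxiliary subunits, Neto2 differed between the cell types and Neto1 was lower at P56 than at P3 in Purkinje cells. Neto2 (1436309_at) had group means of 8.66 to 9.78 in Purkinje cells and 7.48 to 8.22 in Stellate/Basket cells. Its log2 difference over the shared ages was 1.31 ± 0.15 (SE; limma, adjusted p = 1.09e-08), 2.48-fold higher in Purkinje cells, largest at P14 (2.30 ± 0.33). Its other 2 probe sets had 0.27 ± 0.08 and -0.25 ± 0.16. Neto1 (1425132_at) differed by -0.18 ± 0.08 between the cell types (adjusted p = 0.0514), and was at 6.34 ± 0.13 in Purkinje cells at P56 (SD, n = 4), against 7.63 ± 0.32 at P3 (n = 3). The P56 minus P3 difference was -1.29 ± 0.16 (adjusted p = 1.36e-07), and those of the other 2 Neto1 probe sets were -3.09 ± 0.10 and -2.56 ± 0.18, all called. They rest on the P3 arrays, which stood apart in their markers. From P14 to P56 the brightest Neto1 probe set differed by -0.27 ± 0.16 in Purkinje cells (limma, adjusted p = 0.289). In Stellate/Basket cells at P56 the brightest Neto1 probe set was at 7.20 ± 0.52 (SD, n = 2).

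The list of genes for kainate receptor partners held 22 genes that bind, traffic, degrade or edit the subunits, and 21 were tested, with 1 not analysed here. Between the cell types, 3 were higher in Purkinje cells and 2 lower, against 6.37% of all genes called higher and 5.13% lower, and the list median was -0.01 against 0.02 over all genes tested. Besides Neto2, the higher ones were Grip1 (2.41 ± 0.22 SE), a PDZ scaffold, and Sdcbp (2.01 ± 0.13), the PDZ protein syntenin. The lower ones were Adarb2 (-2.96 ± 0.11), a brain member of the RNA-editing deaminase family without known editing activity of its own, and Cask (-1.04 ± 0.13), a membrane scaffold kinase. At P14 Adarb2 was at -3.72 ± 0.24 and Cask at -1.34 ± 0.28. At P56 Adarb2 was at 0.08 ± 0.27 and Cask at 1.23 ± 0.32, called higher in Purkinje cells. The P56 values rest on the 2 Stellate/Basket arrays that stood apart in their markers. Adarb1, the deaminase that edits the pore site of several glutamate receptor transcripts, differed by -0.32 ± 0.08 and was not called. Between P3 and P56 in Purkinje cells, Sdcbp (2.72 ± 0.27) and Snap25 (1.42 ± 0.32), a SNARE protein, rose, while Adarb2 (-3.32 ± 0.24), Cask (-2.13 ± 0.28) and Neto1 fell, with a list median of -0.12 against -0.04 over all genes, of which 8.71% were called higher and 7.81% lower. From P14 to P56, 0 of 21 were called by limma in Purkinje cells (8 had an unadjusted p under 0.05: 5 higher and 3 lower), where 1.69% of all genes were. In Stellate/Basket cells 5 were lower at P56, against 12.3% of all genes, among them Adarb2 (-3.69 ± 0.27) and Dlg3 (-1.86 ± 0.27), a synaptic scaffold. This count rests on the 2 arrays at P56, whose marker means were 12.63 for Purkinje cells, 6.24 for interneurons and 11.35 for astrocytes.

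Among the other ionotropic glutamate receptor genes, 11 of 13 were tested and the other 2 were not analysed here. Over the shared ages limma called 0 higher in Purkinje cells and 3 lower, against 6.37% of all genes called higher and 5.13% lower, with a list median of -0.05. At an unadjusted p under 0.05, 2 were higher and 5 lower. Gria4, an AMPA receptor subunit, was lower by a log2 difference of -4.78 ± 0.19 (SE), Grid1, a delta receptor subunit, by -2.92 ± 0.12, and Grin3a, an NMDA receptor subunit, by -2.28 ± 0.14. At P56 alone the differences were -5.15 ± 0.47 for Gria4, -0.36 ± 0.30 for Grid1 and -1.57 ± 0.34 for Grin3a. Between P3 and P56 in Purkinje cells, Gria1 (4.04 ± 0.39) and Gria3 (1.25 ± 0.33), both AMPA receptor subunits, rose, and Gria4 (-4.26 ± 0.42), Grid1 (-3.43 ± 0.26) and Grin3a (-1.15 ± 0.30) fell. From P14 to P56 in Purkinje cells 0 of 11 were called by limma (3 had an unadjusted p under 0.05, all lower), where 1.69% of all genes were. At P56 in Stellate/Basket arrays Gria4 was at 11.74 ± 0.41 and Grid1 at 6.02 ± 0.57 (SD, n = 2), against 11.47 ± 0.16 and 8.75 ± 0.34 at P14 (n = 4). The Gria4 difference between P56 and P14 was 0.27 ± 0.47 (SE; limma, adjusted p = 0.686).

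The genes with the most similar pattern were found by Pearson correlation over the 12 group means, which share arrays and age structure, and are given as a description. For Grik1 they were Cdr2 (r = 0.989), a cytoplasmic antigen of paraneoplastic cerebellar degeneration, Dagla (0.988), the enzyme that makes the endocannabinoid 2-AG, and Stac (0.985), an adaptor protein. For Grik3 they were Lratd2 (0.997), Grid1 (0.992) and Tmem178 (0.992). Cdr2 had a mean of 10.07 ± 0.29 in Purkinje cells at P56 (SD, n = 4) and 7.40 ± 2.22 in Stellate/Basket cells at P56 (n = 2), where the SD of Grik1 was 3.20. Tmem178, like Grik3, was low in both cell types at P56, at 6.06 ± 0.18 in Purkinje and 6.35 ± 0.09 in Stellate/Basket cells. Grik2, Grik4 and Grik5 had group means that spanned less than 2 log2 units, and no likeness was computed for them.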

How the data were processed

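Expression was measured on Affymetrix MOE430.2 arrays in 42 columns. PolyA RNA went through 2 amplification rounds, per the labels. The authors deposited 1 normalized log2 value for each probe set. R 2.9.1 and GCRMA are named, without role or order, in the submitters' processing notes. The values run from 3.94 to 14.57 and array medians from 5.91 to 6.16. No detection calls came with them, which makes folds against very low groups uncertain. Some groups hold 4 columns although the series' design states 3 biological replicates. The columns kept were used as labelled.

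A column equal to the mean of 2 others of its group within 1e-08 in all 45101 probe sets was left out (2 columns). Genes came from the 34958 probe sets with 1 symbol in the platform annotation, with the probe set of highest mean representing a gene. Genes above log2 5 in at least 3 arrays were tested, 17478 in all, and 32918 probe sets in the probe set fit. limma 3.58.1 in R 4.3.3 fitted 1 mean per group over 40 arrays with moderated variances. Benjamini-Hochberg adjustment ran within each comparison. Calls needed an adjusted p under 0.05 and an absolute log2 difference of at least 1. Differences are Purkinje minus Stellate/Basket, or the later minus the earlier age. Where only 2 arrays make a group, its spread is assumed to be like that of the others.

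Named were all 5 members with every probe set, Neto1, Neto2, Adarb1, up to 4 further called genes of each list per comparison, and the 3 genes most like a member whose group means span at least 2. The members, lists and markers were chosen with earlier results of these data known. Alternatives covered the filter, the probe set summary, the variance model, scaling, covariates, thresholds, ages and leaving out each array. Splits by Xist were chosen after seeing the data. In simulated data, 200 of 17478 genes were altered. Those with a log2 size of 2 were recovered at 100% for the cell type difference. For the difference between the changes from P14 to P56, 84% were recovered at size 2 and 62% at size 1.5. The simulated noise was normal, with 1 spread per gene for all 12 groups. These rates thus do not cover a group of wider spread, such as Stellate/Basket P56 for Grik1 (SD 3.20, n = 2). Figures used Python 3.11.15 and matplotlib 3.10.9.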

Additional observations from a re-analysis of the deposited data

Results flagged for a closer look

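In groups of 4 arrays, 3 values lay far from the other arrays of their group, out of 30 groups of a member looked at, and chance alone sets apart about 1 in 20. Grik4 in Purkinje cells at P21 was at 7.86 in replicate 1, against 7.03 to 7.08 in the other arrays of that age. Grik4 in Purkinje cells at P28 was at 7.22 in replicate 4, against 7.59 to 7.60 in the others. Grik5 in Purkinje cells at P56 was at 6.87 in replicate 2, against 6.15 to 6.21 in the others.

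The change from P14 to P56 differed between Purkinje and Stellate/Basket cells, by a test of the difference itself, for Grik1 (log2 -2.99) and for Grik3 (5.19). Both values rest on the 2 Stellate/Basket arrays at P56.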

How the results depend on the processing

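Leaving out each of the 40 arrays in turn kept the call of Grik3 in each of its 5 main comparisons. For Grik1 it gave -5.25 to -0.73 for the P14-to-P56 change in Purkinje minus that in Stellate/Basket cells and 0.37 to 4.90 for the Stellate/Basket change, with calls lost without P56 replicate 1. For Grik4 it gave 0.93 to 1.12 between the cell types, 0.89 to 1.10 for Purkinje P56 minus P3, 0.38 to 1.33 for the Stellate/Basket change and -1.42 to -0.47 for the difference between the changes. The last 2 passed without Stellate/Basket P56 replicate 3, and the last also without Purkinje P14 replicate 1 or 3 or P56 replicate 3. For Grik5 it gave -1.07 to -0.97 between the cell types. With P35 as the last age, the Stellate/Basket change was -0.29 for Grik1 and 0.63 for Grik3, the difference between the changes -0.20 and -0.40, and the Purkinje change from P3 -0.96 for Grik5. With only the compared groups fitted, the Grik1 values of -2.99 and 2.64 were no longer called.

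The other Grik1 probe set gave 0.65 between the cell types, 0.90 for the Stellate/Basket change and -0.76 for the difference between changes. The other Grik3 probe set gave 0.01, 0.49 and -0.69, and 0.18 for Purkinje P56 minus P3. The mean of both probe sets kept these calls but gave 2.65 for Grik1 and -2.74 for Grik3 for Purkinje P56 minus P3, 1.77 and -2.27 for the Stellate/Basket change and -1.88 and 2.25 for the difference between changes. Array weights gave 0.94 and 0.97 for Grik4 (between the cell types and for P56 minus P3) and -0.99 for Grik5. Between the cell types, Grik5 was at -0.92 with the 90th percentile as a covariate, -0.97 with median centring and -0.95 with Xist as a covariate. With arrays of high Xist only, Grik4 was at 0.97 and Grik5 at -0.99 between the cell types over P21 to P56. This leaves out P14, where 0 Purkinje arrays had high Xist. Grik4 was at 0.78 for P56 minus P3 in the arrays of high Xist. With low Xist, Grik5 was at -1.08 for P56 minus P3, a value that rests on 1 array at P3, and was no longer called. With no minimum difference, Grik2 (-0.42) and Grik4 (-0.95) were called for the difference between changes, and Grik4 (0.85) and Grik5 (-0.63) for the Stellate/Basket change. Where no value or the construction of the alternative shows it, the cause was not tested.

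Deviations from group means had a median r of -0.004 for the 191 pairs of arrays with the same replicate number and -0.002 for 539 pairs with different ones. These pairs were pooled over all ages and both cell types, so the medians cannot show whether arrays of the same age were paired. A replicate block changed the call of none of the 110 values of members, and no called value changed direction. The direction of values not called was not compared. With the block, Grik1 was at 4.64 and Grik3 at -4.44 between the cell types. Grik2 has no value with the filter at log2 6, and Grik3 none for Purkinje P56 minus P14 with only these groups fitted. Median centring or quantile normalization moved an array's median by up to 0.149. The number of arrays, and signal near the low end of the scale, limit the values of Grik2 and of Grik3 in Purkinje cells from P14 on. The same limits hold for Grik1 in Stellate/Basket cells from P14 to P35.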
